A study of Rattus norvegicus with 12 samples.

Results

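The genes described here are 30 genes of cholesterol synthesis, of its control by the SREBP transcription factors, and of cholesterol transport and storage. They were taken by name, as a list of pathway members with no threshold on their values, and all 30 were found among the 19730 genes of the deposited expression table, each once. The list holds 20 enzymes of the mevalonate and sterol pathways, 5 SREBP genes (Srebf1, Srebf2, Scap, Insig1 and Insig2) and 5 genes of transport, storage and receptor decay (Stard4, Soat1, Npc1, Npc2 and Mylip). The enzymes include Ggps1, which lies outside the sterol branch, and Acat1, a mitochondrial thiolase.

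Ovarian RNA of female Sprague Dawley rats, wild type and 15 weeks old, was sequenced in 12 libraries, 1 library per rat and 4 rats per group. The control rats were untreated and ate standard pellets. The PCOS rats received letrozole, an inhibitor of the aromatase that makes estrogen, for 30 days together with a high-fat diet, which is used to model polycystic ovary syndrome (PCOS) in rats. The PCOS-MV rats received the same letrozole and diet and then mogroside V (MV), a sweet glycoside of monk fruit given as a fruit preparation, by gavage for 30 days. Per the study's methods, letrozole and the diet ended before MV began, and all rats were killed at the end of the treatment period. The PCOS ovaries were therefore taken about 30 days after the last letrozole, not during its use. The diet and the feeding come from the study's methods, since the labels name only letrozole and MV. Letrozole and the diet were given together, so that their parts cannot be told apart, and the treated rats were those whose vaginal smears had stayed in metestrus and diestrus. The cycle stage of each rat at sampling was not given in the sources used here, which describe no vehicle gavage for the PCOS group during MV treatment.

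Cholesterol is built from acetyl-CoA through mevalonate, farnesyl diphosphate, squalene and lanosterol. When the endoplasmic reticulum holds little sterol, the escort protein Scap carries the SREBP precursors to the Golgi, where proteases release the active transcription factors; when sterol is plentiful, Insig1 and Insig2 hold Scap back. In the ovary, theca cells, granulosa cells and above all the corpus luteum turn cholesterol into steroid hormones, and draw it from synthesis, from lipoproteins and from stored cholesteryl esters.

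Each value is in FPKM, fragments scaled by the length of the gene and by the mapped total of the library, so that levels of different genes are compared per length. The FPKM of a library summed to between 339830 and 373758 over all genes, and between 17576 and 18247 genes had a value above 0. The depth of the libraries is unknown, since FPKM holds no read numbers. Within a group, Pearson's r of log2(FPKM + 1) between libraries was at least 0.954 in the control group, 0.986 in the PCOS group and 0.977 in the PCOS-MV group. Differences between groups were tested with limma on log2(FPKM + 1) on 2 groups at a time, over all 13430 genes whose mean reached 1 FPKM, and a gene was called at a Benjamini-Hochberg adjusted p under 0.05. All 30 genes passed the filter of 1 FPKM. An exact permutation test of 4 rats against 4 was added for single genes, whose smallest possible two-sided p is 0.0286.

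The 30 genes were expressed at levels that spanned a mean of 4.36 FPKM over the 12 libraries for Ggps1, which makes geranylgeranyl diphosphate outside the sterol branch, to 223 FPKM for Soat1, the enzyme that esterifies cholesterol for storage. After Soat1, the highest mean levels per length were those of Dhcr7 (160 FPKM), which catalyses the last step of the Kandutsch-Russell route to cholesterol, Msmo1 (124 FPKM), a sterol methyl oxidase, Npc2 (122 FPKM), a carrier of cholesterol in the lysosome, and Hmgcs1 (121 FPKM), which makes HMG-CoA. The transcription factor genes were lower, at a mean of 54.2 FPKM for Srebf2, whose product drives cholesterol genes, and 14.4 FPKM for Srebf1, whose product leans towards fatty acid genes. Acat2, the cytosolic thiolase of the first step, shares the table with the near copy Acat2l1, and its mean of 23.4 FPKM is uncertain because reads could have been divided between both.

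Promoters of the 30 genes were read because sterol control acts through short motifs near the start of transcription. The RefSeq table of the GRCr8 assembly held windows from 250 bases before to 50 bases after the start for 26 of the 30 genes, 27 windows in all, and none for Stard4, Fdft1, Pmvk and Sqle. The sterol regulatory element letters TCACNCCAC were in 0 of the 27 windows and in 1.12% of all 33469 rat windows, and a longer, stricter form of it, whose matches are all matches of the first, was in 0 of 27 and in 0.125% of all. The letters CCAAT, the core bound by NF-Y, were in 81.5% of the 27 windows and in 37.5% of all, and CACGTG, an E-box, was in 11.1% of the 27 and in 6.42% of all. Both strands were searched, a match is a match of letters only, and the windows were not compared by a test. With matches in only 1.12% of all windows, 27 windows would most often hold none. The 0 therefore does not set these genes apart and does not show that they lack sterol control. The 4 promoters below belong to the genes with the largest log2 fold changes among those called between the PCOS and control groups, and capitals mark CCAAT (read as ATTGG where it lies on the other strand) and CACGTG. They are written 5′ to 3′ on the strand of the gene, Msmo1 at chr16:29746863-29747162 on the plus strand, Idi1 at chr17:66547475-66547774 on the minus strand, Dhcr7 at chr1:208444184-208444483 on the plus strand and Scap at chr8:119184188-119184487 on the plus strand.
Msmo1: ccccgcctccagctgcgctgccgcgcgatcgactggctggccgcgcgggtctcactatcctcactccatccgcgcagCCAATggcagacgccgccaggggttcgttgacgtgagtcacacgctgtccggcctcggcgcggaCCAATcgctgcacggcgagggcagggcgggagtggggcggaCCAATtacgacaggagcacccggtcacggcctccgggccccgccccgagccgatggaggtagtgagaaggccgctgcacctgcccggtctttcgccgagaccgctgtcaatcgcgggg
Idi1: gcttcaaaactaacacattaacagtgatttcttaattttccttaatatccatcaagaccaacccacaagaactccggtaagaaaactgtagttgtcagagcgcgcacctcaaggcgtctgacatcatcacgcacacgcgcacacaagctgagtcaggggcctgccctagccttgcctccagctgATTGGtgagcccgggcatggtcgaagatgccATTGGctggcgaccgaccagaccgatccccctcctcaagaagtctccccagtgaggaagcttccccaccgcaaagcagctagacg
Dhcr7: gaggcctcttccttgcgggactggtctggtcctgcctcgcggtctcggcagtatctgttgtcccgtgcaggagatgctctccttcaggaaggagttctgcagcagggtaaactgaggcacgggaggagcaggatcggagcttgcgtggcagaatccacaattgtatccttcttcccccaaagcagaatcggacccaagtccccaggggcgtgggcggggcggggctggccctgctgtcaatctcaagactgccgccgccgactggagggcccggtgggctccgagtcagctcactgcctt
Scap: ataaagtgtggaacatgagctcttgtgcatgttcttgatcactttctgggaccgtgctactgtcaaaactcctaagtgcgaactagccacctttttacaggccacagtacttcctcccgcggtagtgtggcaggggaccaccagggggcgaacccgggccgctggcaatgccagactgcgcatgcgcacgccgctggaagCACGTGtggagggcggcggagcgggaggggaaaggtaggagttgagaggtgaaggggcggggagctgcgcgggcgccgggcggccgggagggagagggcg
Msmo1 held CCAAT at 3 places, Idi1 held it at 2 places on the opposite strand, Scap held CACGTG beginning 50 bases before the start, and Dhcr7 held none of the letters searched. The E-box letters were also in the windows of Insig1 and Sc5d.

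The first comparison, PCOS against control, shows how the ovaries differed after the period of letrozole with the high-fat diet had ended. Of the 30 genes, Scap, Dhcr7, Idi1, Msmo1, Soat1 and Insig2 were lower in the PCOS group, Npc2 was higher, and 23 did not pass the test. The 7 calls were 23.3% of the 30 genes, while 27.4% of all genes tested were called, so the number of calls did not set the 30 genes apart. By direction, 6 of 30 were lower, with 15.6% lower among all genes, and 1 of 30 was higher, with 11.9% higher among all genes. The median log2 fold change of the 30 genes was -0.40, beside -0.03 over all genes tested, and 24 of the 30 were below 0. With a 2-fold change also required, 4 of 30 were called (6.75% of all genes), and at an unadjusted p under 0.05 11 of 30 passed (39.4% of all genes).

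Among the enzymes, 3 of 20 fell and 0 rose. The 15.0% that fell were near the 15.6% lower among all genes, where 11.9% were higher. Dhcr7 (ENSRNOG00000020776, chromosome 1 from 217018916 to 217034904 in the authors' coordinates, whose build was not given in the sources used here) was at 307, 196, 150 and 198 FPKM in control replicates 1 to 4, at 114, 71.7, 62.4 and 105 FPKM in PCOS replicates 1 to 4, whereas PCOS-MV replicates 1 to 4 had 195, 158, 209 and 150 FPKM. Every PCOS value of Dhcr7 lay below every control and every PCOS-MV value. The group means were 213 ± 66.7, 88.1 ± 24.8 and 178 ± 28.6 FPKM (SD, n = 4), and between PCOS and control the gene fell by 1.26 on the log2 scale (standard error 0.25, limma adjusted p = 0.00704).

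Idi1, which isomerises isopentenyl diphosphate to start the building of longer chains, lies on chromosome 17 from 57976268 to 57984036 (ENSRNOG00000016690). It was at 142, 105, 72.6 and 98.5 FPKM in control replicates 1 to 4, at 70.5, 22.0, 19.4 and 40.2 FPKM in the PCOS replicates, whereas the PCOS-MV replicates had 99.1, 82.4, 111 and 62.5 FPKM. The PCOS values lay below all control values, and PCOS replicate 1 was the closest to them. Idi1 fell from 105 ± 28.9 to 38.0 ± 23.5 FPKM (SD, n = 4), by 1.58 on the log2 scale (standard error 0.39, limma adjusted p = 0.0166).

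Msmo1, which removes methyl groups from sterols after lanosterol, lies on chromosome 16 from 26859397 to 26875973 (ENSRNOG00000032297). It was at 296, 214, 76.6 and 143 FPKM in the control replicates, at 112, 32.2, 30.8 and 58.0 FPKM in the PCOS replicates, whereas the PCOS-MV replicates had 245, 63.9, 174 and 44.9 FPKM. The control and PCOS values overlapped, since PCOS replicate 1 lay above control replicate 3. Msmo1 had the largest fall of the 30 genes, by 1.66 on the log2 scale (standard error 0.50, limma adjusted p = 0.0388), but the exact permutation test gave p = 0.0571. Its call was kept in 2 of the 8 fits that left out 1 library, those without control replicate 3 or PCOS replicate 1, and the limma adjusted p ranged from 0.0131 to 0.1005 over the 8 fits.

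The other 17 enzymes did not pass the test in this comparison, and most of their estimates were wide. Hmgcs1 and Mvd, which act early in the mevalonate route, had log2 fold changes of -1.16 (95% interval -2.55 to 0.24) and -1.14 (-2.44 to 0.15). Sqle, the squalene epoxidase, was at -1.11 (limma adjusted p = 0.0683), and Hsd17b7, a sterol ketone reductase, at -0.91 (limma adjusted p = 0.119). Fdps, the farnesyl diphosphate synthase, was at -0.76, Mvk, the mevalonate kinase, at -0.55, and Lss, which closes the lanosterol ring, at -0.45. Sc5d, a sterol desaturase, was at -0.35, Nsdhl, a sterol dehydrogenase, at -0.34, and Cyp51, the lanosterol demethylase, at -0.19. The remaining 7 (Acat1, Acat2, Pmvk, Ggps1, Fdft1, Tm7sf2 and Ebp) lay between -0.11 and 0.27.

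Of the 5 SREBP genes, Scap and Insig2 fell (40.0%, beside 15.6% lower among all genes). Scap (ENSRNOG00000020853, chromosome 8 from 118570503 to 118628651) was at 82.1, 75.8, 62.6 and 68.4 FPKM in the control replicates, at 34.1, 29.2, 32.2 and 33.2 FPKM in the PCOS replicates, whereas the PCOS-MV replicates had 76.0, 51.0, 81.8 and 54.3 FPKM. The 4 PCOS values were close together and far below the lowest value of either other group. Scap fell from 72.2 ± 8.55 to 32.2 ± 2.12 FPKM (SD, n = 4), by 1.14 on the log2 scale (standard error 0.10, limma adjusted p = 8.14e-05), and had the smallest adjusted p of the 30 genes.

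Insig2 (ENSRNOG00000002478, chromosome 13 from 37266312 to 37287458) was at 16.3, 17.0, 18.2 and 20.4 FPKM in the control replicates, at 15.0, 13.6, 10.6 and 12.5 FPKM in the PCOS replicates, whereas the PCOS-MV replicates had 15.4, 16.1, 19.98 and 17.5 FPKM. Its PCOS values lay below all others, by a narrow margin for PCOS replicate 1. Insig2 fell by 0.45 on the log2 scale (standard error 0.11, limma adjusted p = 0.0175), and the adjusted p was 0.0501 without PCOS replicate 4. For Srebf2 and Srebf1 the estimates were near 0, at 0.03 (95% interval -0.38 to 0.44) and -0.07 (-0.34 to 0.19), with group means of 55.0, 56.2 and 51.3 FPKM for Srebf2 and of 14.7, 13.9 and 14.5 FPKM for Srebf1 (control, PCOS and PCOS-MV). Insig1, itself a well-known SREBP target, had means of 90.4, 61.7 and 98.8 FPKM in the same order and a wide estimate of -0.75 (95% interval -1.81 to 0.31).

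Of the 5 transport and storage genes, Soat1 fell and Npc2 rose (40.0% called, beside 27.4% of all genes). Soat1 (ENSRNOG00000004111, chromosome 13 from 74035080 to 74077783) was at 267, 254, 188 and 227 FPKM in the control replicates, at 154, 142, 116 and 151 FPKM in the PCOS replicates, whereas the PCOS-MV replicates had 300, 306, 189 and 382 FPKM. The PCOS values lay below all values of both other groups, and the highest values of all were in the PCOS-MV group. Soat1 fell from 234 ± 34.8 to 141 ± 17.1 FPKM (SD, n = 4), by 0.72 on the log2 scale (standard error 0.13, limma adjusted p = 0.00465).

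Npc2 (ENSRNOG00000012062, chromosome 6 from 108467410 to 108488330) was at 108, 130, 91.3 and 90.7 FPKM in the control replicates, at 168, 129, 128 and 151 FPKM in the PCOS replicates, whereas the PCOS-MV replicates had 123, 108, 139 and 95.9 FPKM. Control replicate 2 lay among the PCOS values, so these groups overlapped. Npc2 rose by 0.46 on the log2 scale (standard error 0.14, limma adjusted p = 0.0411, exact permutation p = 0.0857), and the call was kept in 1 of 8 fits with a library left out, the fit without control replicate 2. Stard4, which carries sterol between membranes, was at -0.87 (limma adjusted p = 0.0977), Npc1, the membrane partner of Npc2, at -0.23 (limma adjusted p = 0.113), and Mylip, a ligase that marks lipoprotein receptors for decay, at 0.18 (limma adjusted p = 0.459).

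Dhcr7, Idi1, Scap and Soat1 were called in all 8 fits of PCOS against control that left out 1 library. The number of calls among the 30 was 8 without control replicate 3, the library with the lowest enzyme levels of its group, 9 without PCOS replicate 1, the library with the highest, and 4 without PCOS replicate 4. Over all genes tested, those fits called, in that order, 1639, 1353 and 1223 genes higher and 2276, 1945 and 1539 lower. The fit of all libraries called 1594 higher and 2090 lower. The 4 PCOS values lay wholly below the 4 control values for 5 of the 30 genes (Idi1, Dhcr7, Scap, Insig2 and Soat1), beside 17.2% of all genes tested, and wholly above for 0, beside 13.8% (31% in either direction). These are bulk libraries, in which fewer cells of a type and less RNA per cell cannot be told apart.

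**Figure D1:**
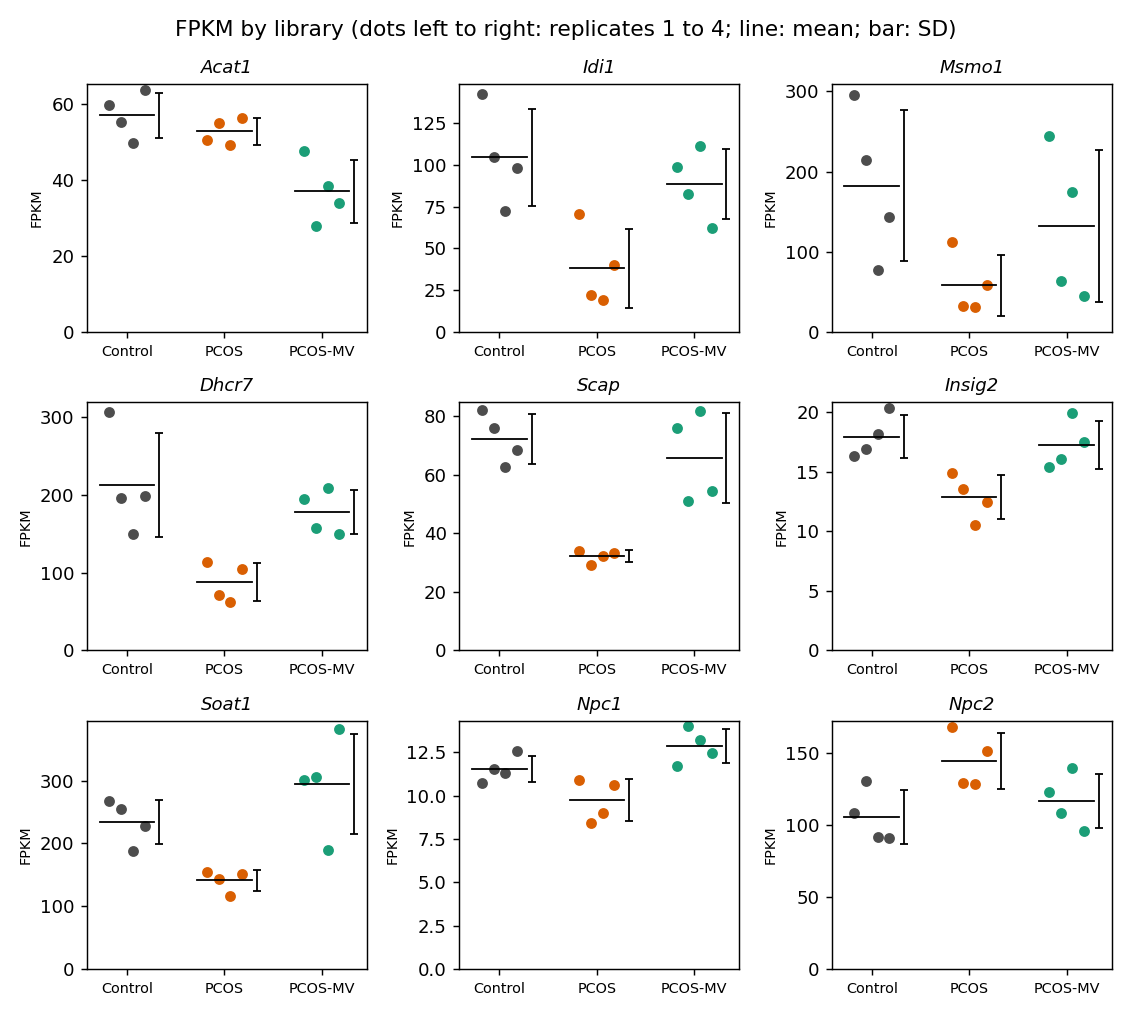
FPKM (y axis, linear from 0) of the 9 genes called in at least 1 comparison, in the control (grey), PCOS (orange) and PCOS-MV (green) groups; dots are replicates 1 to 4 from left to right, the line is the mean and the bar the SD (n = 4). Scap lay between 29.2 and 34.1 FPKM in all 4 PCOS libraries, while Msmo1 ranged from 44.9 to 245 FPKM within the PCOS-MV group.

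The second comparison, PCOS-MV against PCOS, shows what the MV treatment was accompanied by in rats that had received letrozole and the diet. Of the 30 genes, Idi1, Dhcr7, Soat1, Scap, Insig2 and Npc1 were higher in the PCOS-MV group, Acat1 was lower, and 23 did not pass the test. The 7 calls were 23.3% of the 30 genes, beside 25.7% of all genes tested, again no larger a share. In the higher direction 6 of 30 were called, beside 14.3% of all genes, and in the lower direction 1 of 30, beside 11.4%. The median log2 fold change was 0.12 for the 30 genes and 0.03 over all genes, and 17 of the 30 were above 0. With a 2-fold change also required, 3 of 30 were called (5.59% of all genes), and at an unadjusted p under 0.05 7 of 30 passed (38.5% of all genes).

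Scap rose from 32.2 ± 2.12 FPKM to 65.7 ± 15.4 FPKM (SD, n = 4), a ratio of means of 2.04 and a log2 fold change of 0.98 (standard error 0.16, limma adjusted p = 0.00284). All PCOS-MV values of Scap were above all PCOS values, with replicates 1 and 3 at the control level and replicates 2 and 4 below every control value. Soat1 rose to 294 ± 79.6 FPKM (SD, n = 4), by 1.02 on the log2 scale (standard error 0.20, limma adjusted p = 0.00795), and Dhcr7 by 1.04 (standard error 0.21, limma adjusted p = 0.00795). The calls of Scap, Soat1 and Dhcr7 were kept in all 8 fits of this comparison that left out 1 library. These 3 were the only calls among the 30 without PCOS replicate 2, PCOS replicate 3 or PCOS-MV replicate 2, and Npc1 joined them without PCOS replicate 4.

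The other 4 calls held in fewer of these 8 fits. Idi1 rose to 88.8 ± 21.1 FPKM (SD, n = 4), by 1.36 on the log2 scale (standard error 0.38, limma adjusted p = 0.0324), although PCOS replicate 1 lay above PCOS-MV replicate 4. Its call was kept in the 2 fits without PCOS replicate 1 or PCOS-MV replicate 4, and the limma adjusted p ranged from 0.00689 to 0.0839. Insig2 rose by 0.40 (standard error 0.12, limma adjusted p = 0.0383) and was called in the 2 fits without replicate 1 of either group.

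Npc1 (ENSRNOG00000012016), which exports cholesterol from the lysosome, was at 10.8, 11.5, 11.3 and 12.6 FPKM in the control replicates, at 10.9, 8.42, 9.02 and 10.6 FPKM in the PCOS replicates, whereas the PCOS-MV replicates had 11.7, 14.1, 13.2 and 12.5 FPKM. All PCOS-MV values of Npc1 were above all PCOS values. It rose by 0.37 on the log2 scale (standard error 0.10, limma adjusted p = 0.0255), and the call was lost without PCOS replicate 2, PCOS replicate 3 or PCOS-MV replicate 2, with a limma adjusted p of up to 0.0685.

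Acat1 (ENSRNOG00000007862, chromosome 8 from 58166990 to 58195884), the mitochondrial thiolase that also serves ketone body and amino acid metabolism, went the other way. It was at 59.5, 55.1, 49.7 and 63.4 FPKM in the control replicates, at 50.4, 54.9, 49.1 and 56.3 FPKM in the PCOS replicates, whereas the PCOS-MV replicates had 47.6, 27.9, 38.4 and 33.9 FPKM. Every PCOS-MV value of Acat1 lay below every value of the other groups. It fell by 0.52 on the log2 scale between PCOS-MV and PCOS (standard error 0.15, limma adjusted p = 0.0317), a call kept in the 2 fits without PCOS-MV replicate 1 or PCOS-MV replicate 3.

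The 23 genes that were not called ranged from -0.61 for Tm7sf2, a sterol reductase, to 1.05 for Msmo1 (95% interval -0.33 to 2.42). The estimates of Mvd at 0.69, Sqle at 0.60, Insig1 at 0.57, Fdps at 0.43, Hmgcs1 at 0.35, Lss at 0.33 and Mvk at 0.33 all had intervals that included 0. Acat2 was at -0.52, Cyp51 at -0.25, Ggps1 at -0.17, Ebp at -0.16, Pmvk at -0.12 and Fdft1 at -0.11, while Hsd17b7, Sc5d, Nsdhl and Srebf1 lay between -0.06 and 0.09. Srebf2 was at -0.12 (95% interval -0.50 to 0.25), Stard4 at 0.15, and Mylip and Npc2 each at -0.31. The 4 PCOS-MV values lay wholly above the 4 PCOS values for 5 of the 30 genes, beside 16.7% of all genes tested, and wholly below for 1, beside 13.3% (30% in either direction).

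Idi1, Dhcr7, Scap, Insig2 and Soat1 were called in both comparisons. Both comparisons use the same 4 PCOS libraries, so their values are given side by side and not as separate evidence. The log2 fold changes in PCOS against control and in PCOS-MV against PCOS were -1.58 and 1.36 for Idi1, -1.26 and 1.04 for Dhcr7, -1.14 and 0.98 for Scap, -0.72 and 1.02 for Soat1, and -0.45 and 0.40 for Insig2.

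**Figure D2:**
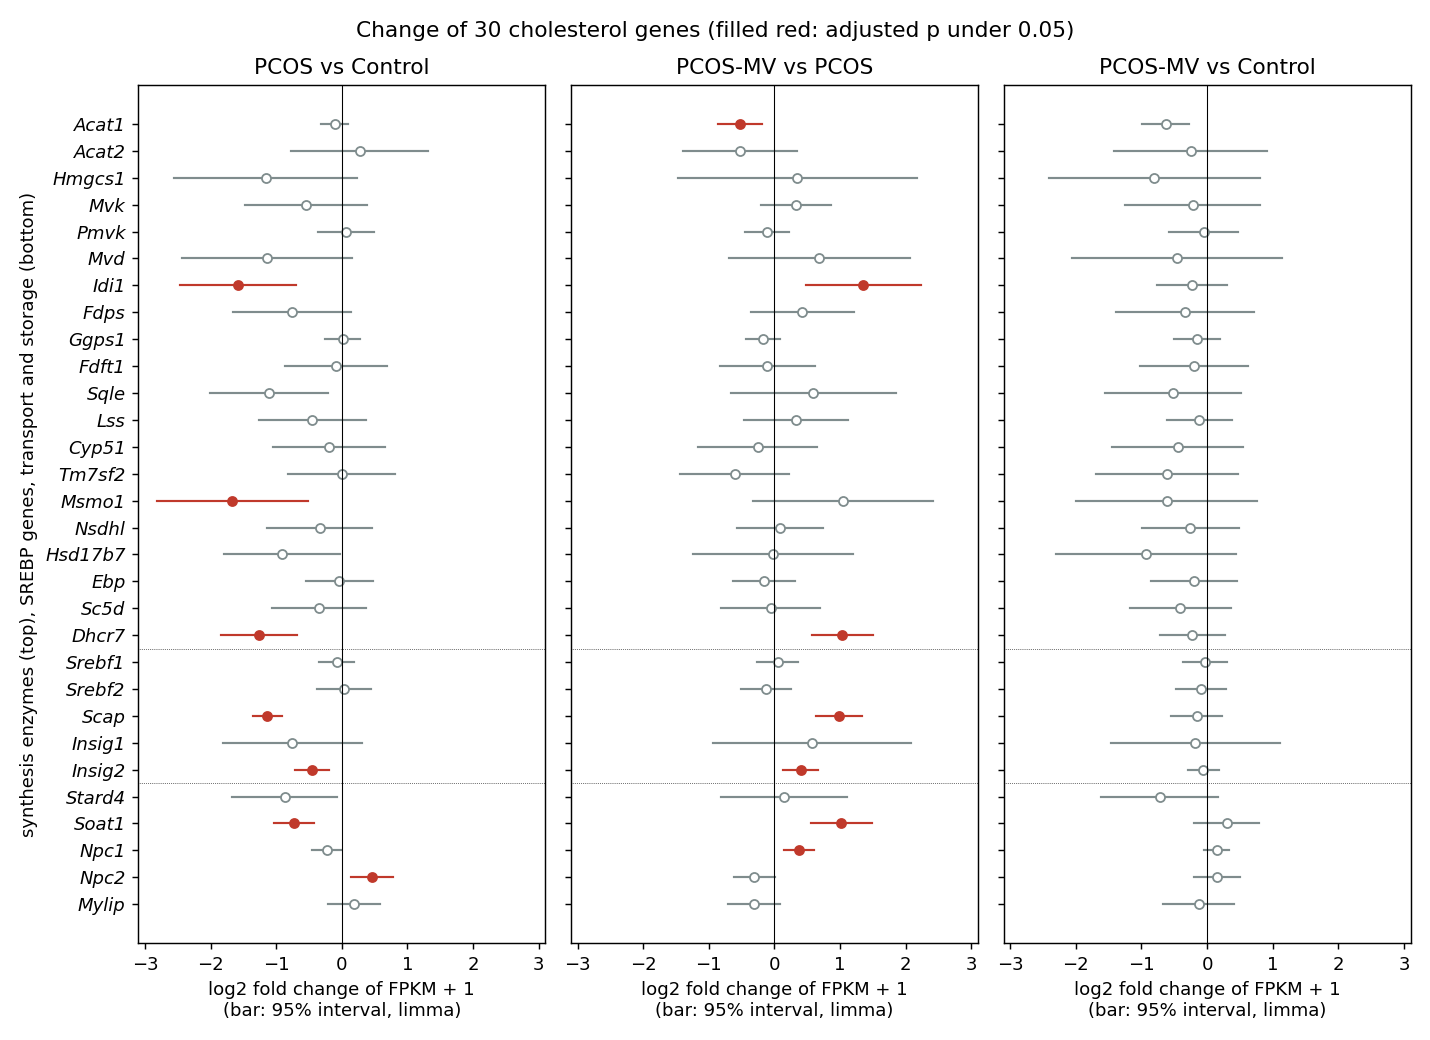
Log2 fold change of FPKM + 1 (x axis) for each of the 30 genes (rows, enzymes at the top, SREBP genes in the middle, transport and storage genes at the bottom) in the 3 comparisons; points are limma estimates, bars their 95% intervals, and filled red points have an adjusted p under 0.05. Most filled points lie left of 0 in PCOS against control and right of 0 in PCOS-MV against PCOS, and 0 of 30 points are filled in PCOS-MV against control.

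The third comparison, PCOS-MV against control, sets the treated rats beside the untreated ones. By limma, 0 of the 30 genes were called, as was 1 of all 13430 genes tested (0.00745%). At an unadjusted p under 0.05, 1 of the 30 passed, beside 8.5% of all genes. That gene was Acat1, with a log2 fold change of -0.63 (95% interval -0.99 to -0.27) and a limma adjusted p of 0.476. Its values lay wholly below in the PCOS-MV group, as did those of 2.29% of all genes, and 0 of the 30 genes lay wholly above, beside 2.81% (5.1% in either direction).

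The intervals show how much the genes called in both other comparisons could still differ from the control level. The log2 fold change of Insig2 was -0.06 (95% interval -0.29 to 0.18), that of Scap -0.16 (-0.54 to 0.23), that of Dhcr7 -0.22 (-0.72 to 0.27) and that of Idi1 -0.23 (-0.76 to 0.31). Soat1 was the highest of the 30 at 0.30 (-0.19 to 0.79), and Npc1 at 0.14 and Npc2 at 0.15 were the other members above 0. The remaining 27 estimates were below 0, all 20 enzymes among them, down to -0.93 for Hsd17b7 (95% interval -2.31 to 0.44). The median of the 30 genes was -0.22 and that of all genes 0.00 on the log2 scale. Over the 20 enzymes the median interval width was 1.82 on the log2 scale, and a difference of the size of their median, -0.29, was not detectable at that width with 4 rats per group.

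The enzymes varied widely between rats of the same group. The median SD of log2(FPKM + 1) over the 20 enzymes was 0.63 in the control group, 0.52 in the PCOS group and 0.57 in the PCOS-MV group, beside 0.18, 0.13 and 0.17 over all genes tested. The highest library was 3.33, 5.87 and 7.73 times the lowest for Hmgcs1 (control, PCOS and PCOS-MV), 5.30, 3.35 and 6.78 times for Mvd, and 3.70, 2.27 and 6.58 times for Hsd17b7. Insig1 ranged from 29.0 to 124 FPKM among PCOS libraries and from 31.2 to 191 FPKM among PCOS-MV libraries. At the other end, Scap differed 1.17-fold and Ggps1 1.08-fold between the highest and lowest PCOS library.

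The libraries ranked alike across the enzymes. Control replicate 1 was the highest of its group for 16 of the 20 enzymes and control replicate 3 the lowest for 18, where over all genes tested they were the highest for 26.7% and the lowest for 31.2%. PCOS replicate 1 was the highest for 17 enzymes and PCOS replicate 3 the lowest for 18, beside 43.2% and 39.8% of all genes. In the PCOS-MV group, replicate 1 was the highest for 12 and replicate 3 for 7 enzymes, and replicate 4 was the lowest for 14. The median enzyme of PCOS-MV replicates 1 to 4 lay at 0.64, -0.40, 0.40 and -0.57 from the group mean on the log2 scale, while the median of all genes lay between -0.05 and 0.06 in every library of the study.

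**Figure D3:**
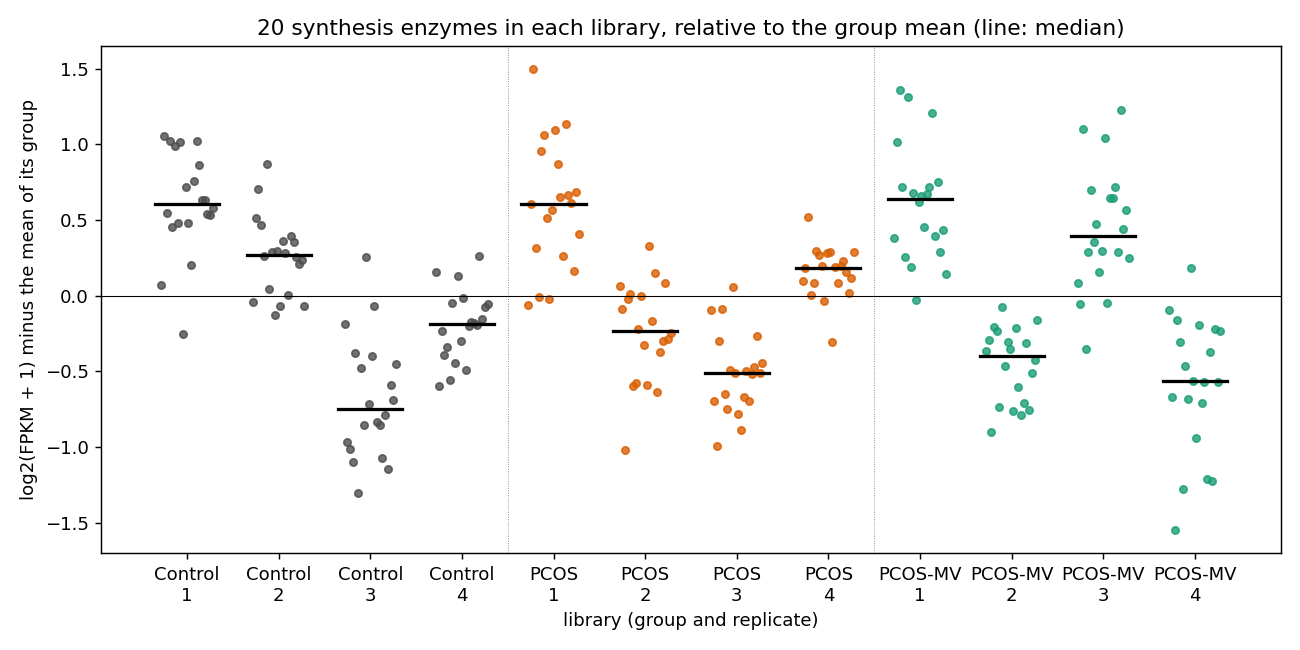
Deviation of each of the 20 enzymes from its group mean of log2(FPKM + 1) (y axis) in each of the 12 libraries (x axis); each dot is 1 enzyme and the black line the median. The medians span from -0.75 in control replicate 3 to 0.60 in control replicate 1, from -0.51 to 0.61 among PCOS libraries and from -0.57 to 0.64 among PCOS-MV libraries.

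Pairs of libraries that stood above the rest of their group were picked after the values were seen, so they are described without a test. Control replicates 1 and 2 were both above replicates 3 and 4 for 15 of 20 enzymes (25.6% of all genes), PCOS replicates 1 and 4 were both above 2 and 3 for 14 (29.8% of all genes), and PCOS-MV replicates 1 and 3 were both above 2 and 4 for 18 (21.7% of all genes). The same pairs led for 5, 4 and 5 of 6 genes that pass cholesterol into steroid synthesis. Scap followed the pair in the control group, in the PCOS group and in the PCOS-MV group, where replicates 1 and 3 were at 76.0 and 81.8 FPKM and replicates 2 and 4 at 51.0 and 54.3 FPKM. Soat1 did not follow the pair in the PCOS-MV group, where replicate 3 was its lowest library.

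Cell type markers moved between and within the groups. The summed level of 5 theca markers (Cyp17a1, Insl3, Ptch1, Gli1 and Aldh1a1) ran from 88.2 to 154 FPKM among control libraries, from 1642 to 3235 FPKM among PCOS libraries and from 42.8 to 165 FPKM among PCOS-MV libraries. That of 7 granulosa markers was 637 to 870, 1079 to 1533 and 582 to 1105 FPKM, and that of the 6 luteal markers found of 7 was 243 to 340, 253 to 389 and 174 to 423 FPKM. Within the PCOS group the theca sum was highest in replicate 1 (3235 FPKM), then in replicate 4 (2498), replicate 2 (2097) and replicate 3 (1642), which is also the order of the enzyme medians and of the granulosa sums there. Over all genes tested, PCOS replicate 1 was the highest of its group for 43.2% and PCOS replicate 3 the lowest for 39.8%. In the PCOS-MV group replicates 1 and 3 had the highest theca sums (165 and 105 FPKM), while in the control group replicate 2 had the lowest (88.2 FPKM). Taken singly, 1 of the 5 theca markers was higher in both PCOS-MV replicates 1 and 3 than in replicates 2 and 4 (21.7% of all genes). The granulosa sums of PCOS-MV replicates 1 to 4 were 762, 790, 1105 and 582 FPKM, and control replicate 4 had the highest of its group (870 FPKM). The luteal sums of replicates 1 to 4 were 262, 243, 285 and 340 FPKM in the control group. They were 389, 306, 253 and 302 FPKM in the PCOS group and 278, 174, 423 and 212 FPKM in the PCOS-MV group. Replicates 1 and 3 were thus the highest in the PCOS-MV group, but replicates 1 and 2 the lowest in the control group.

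Markers of other cells were summed in the same way. The 6 adipocyte markers found of 7 summed to 15.9 to 65.5 FPKM among control libraries, 3.98 to 8.62 among PCOS libraries and 7.83 to 38.3 among PCOS-MV libraries, 7 leukocyte markers to 47.0 to 66.5, 60.7 to 70.4 and 56.4 to 70.4, and 7 oocyte markers to 16.2 to 29.7, 22.7 to 30.3 and 18.5 to 29.0. The 3 ciliated oviduct markers found of 5 summed to 16.9 FPKM in control replicate 3 and to at most 3.86 FPKM in every other library. Control replicate 3 also had the highest adipocyte sum (65.5 FPKM) and was the lowest of its group for 18 of the 20 enzymes. Control replicate 1, the highest for 16 enzymes, had an adipocyte sum of 53.1 FPKM. Whether other tissue in a library bears on its enzyme levels was not tested. No marker found was at 0 throughout a group, and ovarian markers (granulosa, theca, luteal and oocyte) were present in all groups. The markers that reached a mean of 1 FPKM and were tested were 5 for theca, 7 for granulosa, 6 for luteal cells, 5 for oocytes, 5 for leukocytes, 4 for adipocytes and 1 for ciliated epithelium. In PCOS against control, where 27.4% of all genes were called, 3 theca, 4 granulosa, 2 luteal, 1 oocyte and 2 leukocyte markers were higher by limma, and 1 theca, 2 luteal and 4 adipocyte markers were lower. In PCOS-MV against PCOS, where 25.7% of all genes were called, 2 luteal, 2 adipocyte and 1 leukocyte markers were higher, and 4 theca, 3 granulosa, 1 luteal, 1 oocyte and 2 leukocyte markers were lower. The part of these shifts in the levels of the 30 genes was not tested.

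Genes around the pathway were counted by lists, and each list whose count is given is set beside the share of all genes called. That share was 27.4% in PCOS against control (11.9% higher, 15.6% lower) and 25.7% in PCOS-MV against PCOS (14.3% higher, 11.4% lower). Among the electron donors of sterol synthesis, Cyb5r3, a reductase that feeds electrons to sterol enzymes, rose by 0.55 on the log2 scale in PCOS against control (standard error 0.08, limma adjusted p = 0.00159). The other results of its list are not reported here, so this gene does not stand for the list.

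Of 10 genes of SREBP cleavage and sterol-regulated degradation, 3 fell in PCOS against control, Syvn1 by 0.57, Rnf139 by 0.36 and Erlin2 by 0.31, each tied to degradation at the endoplasmic reticulum. These were 30.0% of the list, beside 15.6% lower among all genes (27.4% called in either direction), and 0 of the 10 rose. In PCOS-MV against PCOS, 0 of 10 were called by limma, with 3 at an unadjusted p under 0.05. Soat2 was below 1 FPKM and was not tested.

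The branches that leave the pathway before sterols gave 4 lower and 0 higher of 12 genes in PCOS against control, and 2 higher and 0 lower in PCOS-MV against PCOS. The shares called were 33.3% and 16.7%, beside 15.6% lower and 14.3% higher among all genes (27.4% and 25.7% in either direction). Zmpste24, a protease that trims prenylated proteins, fell by 1.01 on the log2 scale (standard error 0.08, limma adjusted p = 4.76e-05) and then rose by 0.85 (standard error 0.18, limma adjusted p = 0.00938). Its PCOS values were 39.7, 40.3, 41.5 and 38.7 FPKM (SD 1.19), beside 75.2 to 92.2 FPKM in the control group.

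Of 14 genes of ester hydrolysis, sterol transfer and LXR targets, 3 rose and 6 fell in PCOS against control, and 4 rose and 3 fell in PCOS-MV against PCOS. In all, 9 and 7 of the 14 were called, beside 27.4% and 25.7% of all genes. Abca1, the cholesterol exporter, rose by 1.27 (standard error 0.17, limma adjusted p = 0.000924) and then fell by 0.77 (standard error 0.18, limma adjusted p = 0.0145), opposite to Soat1. Gramd1b, which moves cholesterol from the plasma membrane, fell by 1.13 and rose by 0.76. Lipa, the lysosomal ester hydrolase, fell by 0.64 and rose by 0.77.

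Of 6 genes that bring cholesterol into steroid synthesis, 5 fell in PCOS against control and 0 rose, and 3 rose and 0 fell in PCOS-MV against PCOS. In all, 5 and 3 of the 6 were called, beside 15.6% lower and 14.3% higher among all genes (27.4% and 25.7% in either direction). Star, which moves cholesterol into mitochondria, fell by 1.70 (standard error 0.28, limma adjusted p = 0.00241) and then rose by 1.57 (standard error 0.31, limma adjusted p = 0.00742). Fdx1, the electron donor of side chain cleavage, fell by 1.51 and rose by 1.53, and Scarb1, the HDL receptor, fell by 1.34 in the first comparison. In PCOS-MV against control, limma called 0 genes of every one of these lists.

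**Figure D4:**
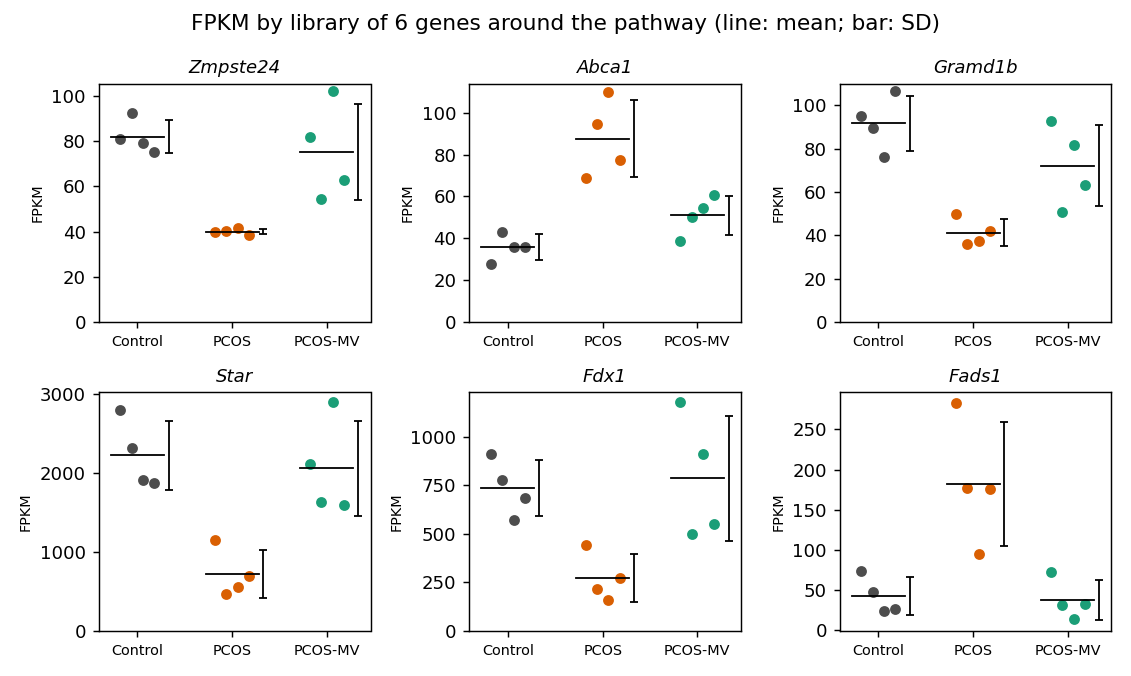
FPKM by library (y axis, linear) of 6 genes around the pathway in the control (grey), PCOS (orange) and PCOS-MV (green) groups; dots are replicates 1 to 4 from left to right, the line is the mean and the bar the SD (n = 4). Zmpste24 lay between 38.7 and 41.5 FPKM in the PCOS group, and all PCOS values of Abca1 lay above those of the other groups.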

How the data were processed

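Ovarian RNA-seq libraries of 12 rats were assigned to the control, PCOS and PCOS-MV groups by their titles and treatment labels, and the table's columns by the same names. The authors deposited FPKM per gene, and no read counts were used here. Per the study's methods, reads were filtered, aligned with HISAT2 2.0.5 and counted with featureCounts, and FPKM was computed from the counts and gene lengths, whereas the submitters' processing notes name STAR 2.5.1b and HTSeq 0.6.0. Which pair made the table, and the genome build, are not given in the sources used here. How reads that fit several genes were counted could change the values of near copies. The study's test is described with 3 replicates in each condition, whereas each group has 4 libraries here. The file also holds the authors' group means and the fold changes and p-values of their own comparisons, which were not used.

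The FPKM values repeat over 26928 transcript lines, and 1 line was kept for each of the 19730 genes. Values were tested as log2(FPKM + 1), a scale that understates changes of low genes, with limma 3.58.1 in R 4.3.3 (lmFit, eBayes with trend), fitted to each pair of groups over all 13430 genes whose mean reached 1 FPKM. Benjamini-Hochberg adjustment ran over all of these, and adjusted p under 0.05 was called. Single genes were also compared by exact two-sided permutation tests in scipy 1.17.1 with Python 3.11.15. The limma step was tested on simulated data. FPKM leaves the depth unknown, so no counting interval is given, and the precision is that of 4 rats per group.

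Members were taken by pathway name, with no rule on measured values, but they and the lists were chosen with earlier results of these data known, so values may have influenced the choice. Every member was named, members called at least once with all library values, and at most 3 called genes of each other list by size of change. Some results are not reported here. Of 70 other pathway genes 68 were found, and of 45 markers 41. Promoter windows and their GRCr8 coordinates come from RefSeq, matched by symbol. Coordinates of genes are the authors' own and were not set against GRCr8. Promoters were printed for the largest called changes because none matched the sterol element. Alternatives were a pseudocount of 0.1, no low-value filter, 1 model of all 12 libraries, median-ratio rescaling, a replicate block, a 2-fold threshold and each library left out in turn.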

Additional observations from a re-analysis of the deposited data

Results flagged for a closer look

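Each of the 30 genes was examined in each group of 4 libraries for a single library far from the others (Dixon's test), which made 90 groups. By chance about 4.5 would stand out, and 1 did. Mvk, the mevalonate kinase, was at 20.1 FPKM in PCOS-MV replicate 1 and at 9.04 to 10.5 FPKM in the other PCOS-MV replicates. The gene was not called in any comparison.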

How the results depend on the processing

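The direction of each called gene was kept under every alternative run, and 0 of the 30 genes were called in PCOS-MV against control under any of them. In PCOS against control, 7 genes were called, and 4 with a 2-fold threshold (Idi1, Dhcr7, Scap and Msmo1). Leaving out 1 library gave 4 to 9 calls, 4 without PCOS replicate 4 and 9 without PCOS replicate 1. Over all genes tested, those fits called 1223 higher and 1539 lower, and 1353 higher and 1945 lower, beside 1594 and 2090 in the main fit. In PCOS-MV against PCOS, 7 genes were called, 4 with no filter on low values (Soat1, Npc1, Dhcr7 and Scap) and 3 with a 2-fold threshold (Soat1, Idi1 and Dhcr7). Leaving out 1 library gave 3 to 6 calls, with 3 without PCOS replicate 2, PCOS replicate 3 or PCOS-MV replicate 2, and 4 without PCOS replicate 4. Over all genes tested, those fits called, in that order, 1278, 1345, 1511 and 1272 genes higher and 1167, 1299, 1267 and 1181 lower. The main fit called 1918 higher and 1530 lower, and the fit with no filter 1843 higher and 1696 lower. The cause of these changes was not tested. The estimate of Insig2 in PCOS-MV against control, -0.06, ranged from -0.12 without PCOS-MV replicate 3 to 0.0034 without control replicate 4. This was the 1 change of sign in that comparison among the 9 genes called in at least 1 comparison. Estimates of genes never called also changed sign with a library left out, such as Insig1 in PCOS-MV against control (-0.18, up to 0.24).

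Replicate numbers are shared between the groups, but nothing in the labels says that they pair rats, and same-numbered libraries deviated together with r of -0.05 to 0.22. PCOS-MV replicates 1, 2 and 3 each matched best the PCOS library of their own number (r 0.10, 0.17 and 0.14), and replicate 4 did not (0.04). In PCOS-MV against control this held for replicate 1 alone, and in PCOS against control for no replicate. Whether the numbers mark a shared batch was not tested. With the replicate number as a block, 7 genes were called in PCOS against control (with Hsd17b7 and Sqle in place of Insig2 and Npc2), 4 in PCOS-MV against PCOS (Soat1, Idi1, Dhcr7 and Scap) and 0 in PCOS-MV against control. Over all genes tested, the block fits called 1239 higher and 1666 lower in PCOS against control. They called 1706 higher and 1373 lower in PCOS-MV against PCOS.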

Other observations

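Fatty acid synthesis is the arm linked to Srebf1. Of 12 genes, 3 rose and 1 fell in PCOS against control, and 0 rose and 2 fell in PCOS-MV against PCOS (limma, adjusted p under 0.05). The shares called, 33.3% and 16.7%, stand beside 27.4% and 25.7% of all genes tested. Fads1, a desaturase of polyunsaturated fatty acids, was at 73.7, 47.5, 23.6 and 26.1 FPKM in the control replicates, at 283, 177, 94.5 and 175 FPKM in the PCOS replicates, whereas the PCOS-MV replicates had 72.6, 30.9, 13.8 and 32.7 FPKM. All PCOS values of Fads1 lay above all others. It rose by 2.12 on the log2 scale in PCOS against control (standard error 0.42, limma adjusted p = 0.00628) and fell by 2.38 in PCOS-MV against PCOS (standard error 0.48, limma adjusted p = 0.00859). Fads2, which acts beside it, rose by 1.71 and fell by 2.003. Scd, which makes monounsaturated fatty acids, fell by 1.36 in PCOS against control (limma adjusted p = 0.00994), opposite to Fads1 and Fads2, while Srebf1 itself was not called in any comparison.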
